A study of Mus musculus with 23 samples.

Results

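The contractile genes of myofibroblasts are described here in whole tumors and in cancer-associated fibroblasts (CAFs) of syngeneic mouse tumor models. The 10 members, of 24940 gene symbols listed, were taken by name and are *Acta2*, *Actg2*, *Tagln*, *Myl9*, *Cnn1*, *Tpm1*, *Tpm2*, *Myh11*, *Des* and *Cald1*. All 10 were found in both tables, and all 10 passed the filters on low values.

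Tumors grew under the skin of the flank of immunocompetent adult female C57BL/6 mice after injection of 500000 cells of 1 cancer cell line, and were taken at the endpoint. The lines were the melanoma B16-F10 (B16), the breast cancer EO771.LMB (EO771), the lung cancer LL/2 (LL2), the colon cancer MC38 and the pancreatic cancer Pan02, each a single established line. RNA of 3 tumors per model, 15 in all, and of 2 libraries of CAFs each from EO771, LL2, MC38 and Pan02 tumors, 8 in all, was sequenced. CAFs were cells sorted as FAP+ from the CD45- fraction of dissociated tumors, with no further marker stated for the sort, and CAFs of B16 are not analysed here.

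Tumor libraries held 10035173 to 21946486 counts over genes (median 16541399). The CAF values corresponded to 9267740 to 22841660 reads per library, with the fewest in MC38 CAF library 2. The sorted cells carried the fibroblast markers, whose 10 genes summed to 1619 to 10534 RPKM (reads scaled by transcript length and by the depth of the library), and every one of them was above 0 in all 8 libraries. The 2 MC38 CAF libraries stood apart from each other. Their fibroblast markers summed to 7031 RPKM in library 1 and 1619 RPKM in library 2, and 9 pericyte markers to 414 and 112 RPKM. Keratins and other epithelial markers, 7 genes, summed to 886 and 1172 RPKM in Pan02 CAFs and 494.5 and 501.5 RPKM in EO771 CAFs. Their sums were 207.3 and 212.5 RPKM in LL2 CAFs and 4.85 and 2.16 RPKM in MC38 CAFs. Nothing in the labels says that the libraries of a model came from separate animals, so p-values measure the spread between libraries, and CAF library numbers only name the 2 columns of a model.

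A myofibroblast is a fibroblast that has taken up part of the contractile apparatus of smooth muscle and that pulls on the matrix around it. Its stress fibers hold α-smooth muscle actin (*Acta2*), and force comes from myosin II, which is switched on by phosphorylation of its regulatory light chain. Tension and TGF-β raise these genes, in part through serum response factor and its actin-regulated partners, which bind CArG boxes. Pericytes and smooth muscle of vessels express the same genes at high levels, and skeletal muscle uses related ones, so that in bulk tissue the source of their RNA is not given by the genes alone.

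The promoters of *Acta2* and *Myl9* are shown because they are the 2 of 7 members with a RefSeq window (GRCm38.p6, from 250 bases before to 50 after the start site) that hold a CArG box or a near match, marked by capitals. A CArG box was taken as 2 C, 6 A or T and 2 G on either strand, and a near match as the same with 1 G or C among the middle 6. The near match was added after the sequences had been seen. A CArG box was found in 1.63% and a near match in 8.5% of all 32851 windows. The *Acta2* window lies on the minus strand at chr19:34255324-34255623, and its 2 near matches begin 84 and 34 bases before the start site.
Acta2: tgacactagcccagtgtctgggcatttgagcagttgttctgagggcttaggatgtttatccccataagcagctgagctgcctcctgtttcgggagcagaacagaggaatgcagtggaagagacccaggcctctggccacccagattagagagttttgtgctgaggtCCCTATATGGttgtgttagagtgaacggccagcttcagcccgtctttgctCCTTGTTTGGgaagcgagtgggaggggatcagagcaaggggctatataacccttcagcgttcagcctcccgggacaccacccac
The *Myl9* window lies on the plus strand at chr2:156775214-156775513, with a CArG box 161 bases and a near match 99 bases before the start site.
Myl9: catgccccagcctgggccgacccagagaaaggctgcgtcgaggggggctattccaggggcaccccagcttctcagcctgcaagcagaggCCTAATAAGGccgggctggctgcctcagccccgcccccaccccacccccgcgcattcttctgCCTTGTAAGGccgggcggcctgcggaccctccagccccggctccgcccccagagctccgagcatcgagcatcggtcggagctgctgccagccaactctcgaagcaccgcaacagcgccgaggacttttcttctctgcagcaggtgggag
The windows of *Cnn1*, *Tpm1*, *Tpm2*, *Des* and *Cald1* held neither, which says only that these letters are not in these 300 bases.

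Across the 15 tumors, the model that stood out for the smooth muscle genes was Pan02, and the one with the lowest levels for most members was B16. In edgeR's quasi-likelihood test, a difference among the 5 models passed (adjusted p under 0.05) for 10 of 10 members, and for 91.1% of the 15722 genes tested. In Pan02, 7 of 10 members were higher than the mean of the other models by at least 1 on the log2 scale (18.8% of all genes tested), with a median log2 fold change of 1.90 over the 10 members and 0.05 over all genes. In B16, 7 of 10 members were lower by at least 1 (19.6% of all genes), with medians of -2.40 and -0.03. Fibroblast markers moved with both models. The 10 fibroblast markers were lower in B16 in 10 of 10 genes and higher in Pan02 in 10 of 10, with sums of 407 to 1686 CPM in B16, 2991 to 13619 CPM in EO771, LL2 and MC38, and 45158 to 50796 CPM in Pan02. The 9 pericyte markers summed to 436 to 595.5 CPM in Pan02 and 78.8 to 274 CPM elsewhere, with 2 of 9 higher in Pan02 (18.8% of all genes). In B16 they summed to 162 to 274 CPM, with 1 higher and 2 lower (13.1% and 19.6% of all genes) and a median log2 fold change of -0.03. The part of the fibroblast and pericyte markers in the results was not tested. In whole tumor RNA, fewer cells of a type and less RNA per cell cannot be told apart.

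**Figure D1:**
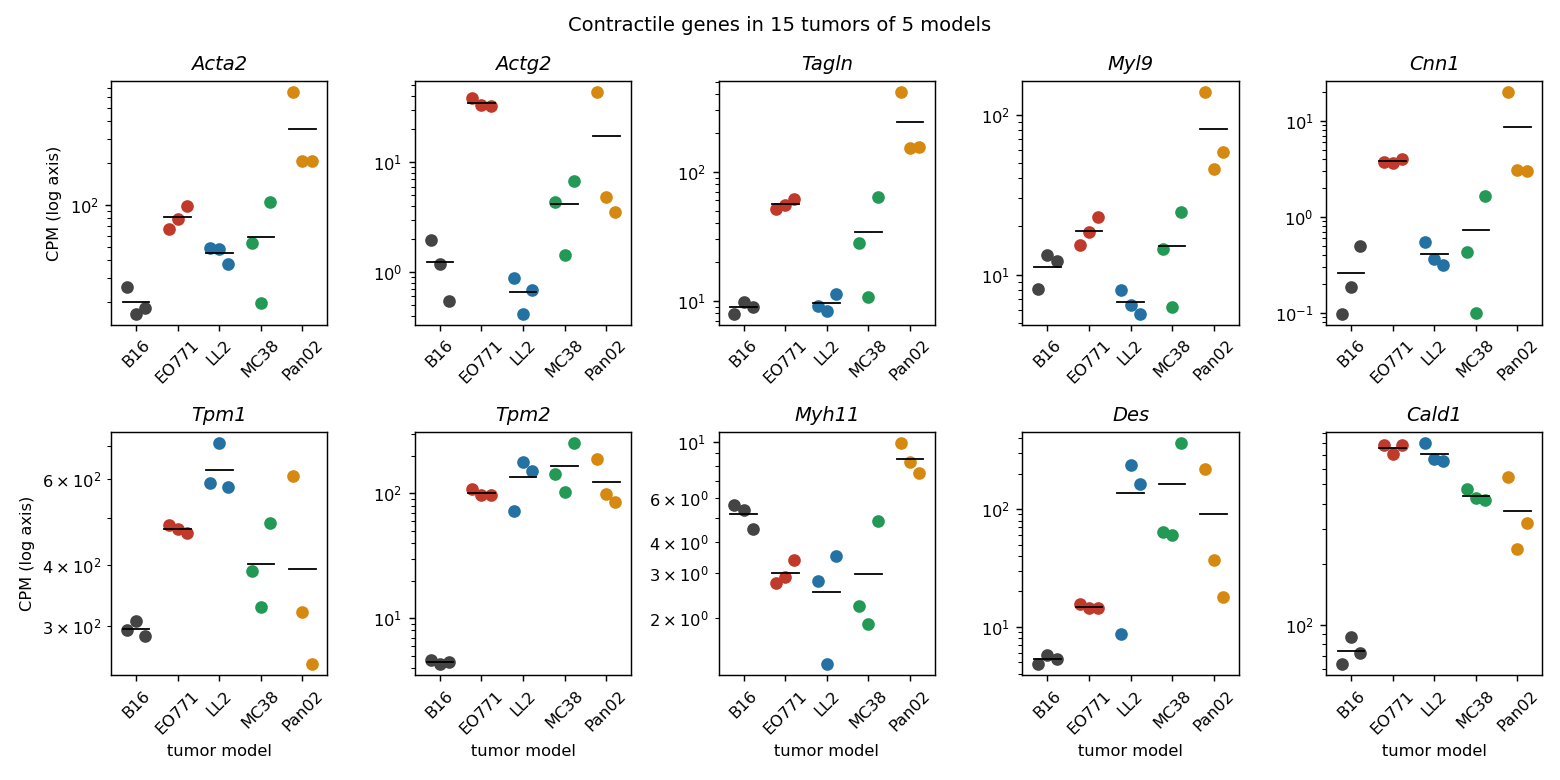
CPM (log axis) of each contractile gene in the 3 tumors of each of 5 models; points are tumors and lines are means. All 3 Pan02 tumors lie above the other 12 for *Acta2*, *Tagln*, *Myl9* and *Myh11*, and all 3 B16 tumors lie below the other 12 for *Tpm2*, *Des* and *Cald1*.

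Among the actins, *Acta2* (NM_007392, chr19:34240336-34255373, minus strand) reached 650.5, 207 and 208 CPM in the 3 Pan02 tumors. It stood at 66.6, 79.7 and 98.3 CPM in EO771, at 53.5, 19.5 and 104 CPM in MC38, at 48.9, 48.1 and 37.3 CPM in LL2 and at 25.5, 16.5 and 18.2 CPM in B16. Every Pan02 tumor lay above every other tumor, and 1 Pan02 tumor lay well above the other two, with a ratio of 3.14 between highest and lowest. The Pan02 contrast gave a log2 fold change of 2.96 (SE 0.35, edgeR adjusted p = 8e-06), and the B16 contrast -2.23 (SE 0.48, adjusted p = 0.0011). In the order Pan02, EO771, MC38, LL2, B16, only the first step passed the edgeR test (Pan02 against EO771, adjusted p = 0.0034), while EO771 against MC38 (0.48), MC38 against LL2 (0.56) and LL2 against B16 (0.075) did not.

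*Actg2* (NM_009610, chr6:83512909-83536251, minus strand), the γ-actin of enteric smooth muscle, followed another order. EO771 tumors held 38.4, 33.0 and 32.8 CPM, while the Pan02 tumors held 43.4, 4.79 and 3.48 CPM. MC38 tumors held 4.38, 1.44 and 6.78 CPM, and the other two models stayed at or below 1.97 CPM. EO771 was thus high in every tumor and Pan02 in 1 of 3. The edgeR log2 fold change was 3.67 in EO771 (SE 0.54, adjusted p = 7.7e-05) and 2.42 in Pan02 (SE 0.56, adjusted p = 0.0021), and EO771 against Pan02 did not pass (1.00, SE 0.76, adjusted p = 0.26). *Actg2* was lower in LL2 by -3.48 (SE 0.87, adjusted p = 0.0056).

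Of the genes whose products bind actin filaments, *Tagln* (NM_011526, chr9:45929628-45936058, minus strand), which codes for transgelin, gave the largest Pan02 contrast of all members. Its levels were 416, 153 and 157 CPM in Pan02, 51.2, 54.9 and 62.1 CPM in EO771, 28.3, 10.6 and 63.4 CPM in MC38, 9.11, 8.29 and 11.3 CPM in LL2, and 7.96, 9.82 and 8.93 CPM in B16. The Pan02 tumors did not overlap the rest, and the EO771 tumors exceeded those of LL2 and B16. The log2 fold change was 3.59 in Pan02 (SE 0.33, edgeR adjusted p = 9.5e-07), 0.95 in EO771 (SE 0.37, adjusted p = 0.042), -2.24 in LL2 (SE 0.46, adjusted p = 0.0017) and -2.36 in B16 (SE 0.47, adjusted p = 0.00064). Exons of an antisense gene, Gm48529, cover 62.4% of the annotated *Tagln* exon bases, and reads were counted on both strands, so the 2 genes cannot be told apart there.

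*Cnn1* (NM_009922, chr9:22099253-22109221, plus strand), coding for calponin, a marker of differentiated smooth muscle, was low throughout. It reached 19.8, 3.04 and 3.0 CPM in Pan02 and 3.71, 3.65 and 4.01 CPM in EO771, against 0.0982 to 1.64 CPM in the other 9 tumors. Both models were above every other tumor, but 2 of the 3 Pan02 tumors lay below all EO771 tumors. The log2 fold changes were 3.53 in Pan02 (SE 0.55, edgeR adjusted p = 9.1e-05), 2.04 in EO771 (SE 0.59, adjusted p = 0.011) and -2.57 in B16 (SE 0.86, adjusted p = 0.018). *Cald1* (NM_145575, chr6:34709444-34775469, plus strand), coding for caldesmon, had no Pan02 peak. EO771 tumors held 787, 709 and 787 CPM, LL2 tumors 807, 666.5 and 655 CPM, MC38 tumors 473, 429.8 and 417 CPM, Pan02 tumors 547, 237 and 322 CPM, and B16 tumors 63.6, 87.0 and 72.7 CPM. B16 was clearly apart, with a log2 fold change of -2.87 (SE 0.22, edgeR adjusted p = 1.1e-07), while EO771 (1.32, SE 0.17, adjusted p = 1.9e-05) and LL2 (1.20, SE 0.17, adjusted p = 7.9e-05) were higher and Pan02 was not (0.02, SE 0.18, adjusted p = 0.94).

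Of the myosin genes, *Myl9* (NM_172118, chr2:156775464-156781657, plus strand), the regulatory light chain of smooth muscle myosin, held 138, 45.4 and 58.4 CPM in Pan02 tumors. The other tumors lay between 5.70 and 24.7 CPM, with LL2 the lowest at 7.95, 6.47 and 5.70 CPM. The log2 fold change was 2.74 in Pan02 (SE 0.31, edgeR adjusted p = 5.1e-06) and -1.75 in LL2 (SE 0.41, adjusted p = 0.0037). *Myl9* was the only one of the smooth muscle actin, transgelin, calponin and light chain genes that did not pass in B16 (-0.81, SE 0.38, adjusted p = 0.076). *Myh11* (NM_001161775, chr16:14194527-14291408, minus strand), the smooth muscle myosin heavy chain and a gene of vascular smooth muscle, stayed between 1.30 and 9.92 CPM. Pan02 tumors, at 9.92, 8.30 and 7.50 CPM, were above all others, and B16 tumors, at 5.60, 5.35 and 4.49 CPM, came next. The contrast passed in Pan02 (1.39, SE 0.27, edgeR adjusted p = 0.0005), and Pan02 against B16 did not (B16 minus Pan02 -0.74, SE 0.36, adjusted p = 0.09).

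Of the tropomyosins, which lie along actin filaments, *Tpm1* (NM_024427, chr9:67022593-67049213, minus strand) varied least. B16 tumors held 295, 308 and 286 CPM, LL2 tumors 589, 711 and 578 CPM, and the remaining 9 tumors 250.3 to 607 CPM. The changes stayed under 1 on the log2 scale, at -0.65 in B16 (SE 0.21, edgeR adjusted p = 0.013) and 0.70 in LL2 (SE 0.19, adjusted p = 0.0086). *Tpm2* (NM_009416, chr4:43513726-43523554, minus strand) showed the widest gap of B16 from the rest. B16 tumors held 4.62, 4.29 and 4.44 CPM, against 72.6 to 254.5 CPM in the other 12. Its log2 fold change in B16 was -4.86 (SE 0.42, edgeR adjusted p = 2.9e-07), and among the other 4 models no pair passed the test, with adjusted p from 0.12 to 0.81. *Tpm2* is nonetheless counted as higher in Pan02 (1.14), LL2 (1.28) and MC38 (1.67), each set against a mean that includes B16.

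*Des* (NM_010043, chr1:75360292-75368579, plus strand), coding for desmin, the intermediate filament of muscle and of pericytes, varied most within models. LL2 tumors held 8.70, 238 and 162 CPM, MC38 tumors 63.8, 60.03 and 366 CPM, and Pan02 tumors 219, 36.7 and 17.9 CPM. EO771 tumors held 15.7, 14.4 and 14.4 CPM and B16 tumors 4.81, 5.78 and 5.39 CPM. Within-model ratios of highest to lowest reached 27.4 in LL2, 12.2 in Pan02 and 6.10 in MC38. The log2 fold change was -3.79 in B16 (SE 1.08, edgeR adjusted p = 0.0074), 2.37 in MC38 (SE 0.71, adjusted p = 0.013) and 2.05 in LL2 (SE 0.71, adjusted p = 0.034).

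These spreads moved with markers of skeletal muscle. The 15 markers, fast myosins and troponins among them, summed to 8.93 to 16.1 CPM in B16 and EO771, to 7.81, 1253 and 1600 CPM in LL2, to 1579, 555 and 4790 CPM in MC38, and to 1218, 309.5 and 65.6 CPM in Pan02. Over the 15 tumors, the Pearson correlation of the logarithms with this sum was 0.95 for *Des* and 0.68 for *Tpm2*, and at most 0.36 for the other 8 members. The correlation is a description, since tumors of a model share their line. In the 8 tumors with a sum under 100 CPM, 3 of B16, 3 of EO771, 1 of LL2 and 1 of Pan02, *Des* in LL2 turned to -0.36 (SE 0.20, edgeR adjusted p = 0.18), while the Pan02 changes of *Acta2* (2.29, SE 0.20, adjusted p = 1.5e-05), *Tagln* (3.25, SE 0.12, adjusted p = 7.2e-08) and *Myl9* (2.31, SE 0.22, adjusted p = 2.1e-05) passed. *Actg2* in Pan02 did not (0.11, SE 0.39, adjusted p = 0.84). In this fit, added after the data had been seen, the lone LL2 and Pan02 tumors are assumed to vary like the other groups, and MC38 is absent. Acta1, the skeletal muscle actin and 1 of the 15, held 1.16 to 611 CPM in LL2 and 194 to 1424 CPM in MC38. *Acta2* shares 0.326% of its runs of 50 bases with other annotated genes, none of them Acta1.

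**Figure D2:**
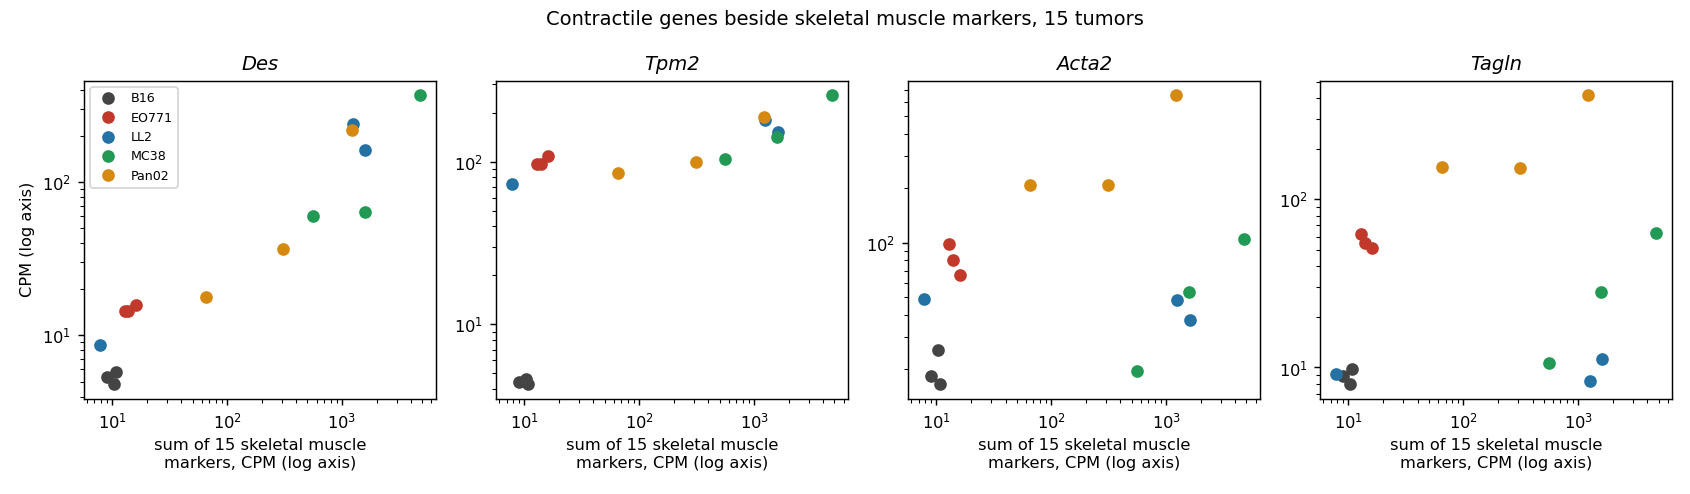
CPM of *Des*, *Tpm2*, *Acta2* and *Tagln* in 15 tumors against the summed CPM of 15 skeletal muscle markers (both axes log); points are tumors, colored by model. *Des* rises along the sum (r = 0.95 over 15 tumors), while *Acta2* and *Tagln* are highest in the 3 Pan02 tumors at sums from 65.6 to 1218 CPM.

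The remaining models had fewer called members. EO771 tumors had 3 of 10 higher by at least 1 on the log2 scale, *Actg2*, *Cald1* and *Cnn1* (9.71% of all genes). LL2 tumors had 3 higher, *Cald1*, *Des* and *Tpm2* (8.51% of all genes), and 3 lower, *Actg2*, *Myl9* and *Tagln* (8.29%). MC38 tumors had 2 higher, *Des* and *Tpm2* (11.2%), and both moved with the skeletal muscle sum given above. Without 1 MC38 tumor, replicate 3, only 1 was higher in MC38 and 2 were lower (8.24% of all genes in the fit of all tumors). Of the non-overlap seen in the plot of tumors, 4 members in Pan02 stand beside 8.92% of all genes with every Pan02 tumor above the rest, and 3 members in B16 beside 12.2% with every B16 tumor below.

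In sorted CAFs the picture for Pan02 was not that of the tumors, while *Actg2* and *Cnn1* were higher in EO771 in both sets. *Actg2* was also lower in LL2 in both. In tumors the mean of the other models includes B16, of which no CAFs are analysed here. In limma on log2(RPKM + 1), 8 of 10 members passed the test of a difference among the 4 models, beside 80.4% of the 13598 genes tested. *Acta2* (limma adjusted p = 0.19) and *Myl9* (0.11) did not. EO771 CAFs had 3 members higher by at least 1, *Actg2*, *Cnn1* and *Tagln* (8.05% of all genes), and Pan02 CAFs had 3 lower, *Actg2*, *Des* and *Myh11* (8.41%). MC38 CAFs had 2 higher, *Des* and *Myh11* (10.9%), and LL2 CAFs had 1 lower, *Actg2* (5.13%). None of these counts, those of EO771 and Pan02 included, held in every fit with a single library left out, as the closing section gives. The MC38 difference then ran from 0.41 to 2.45 for *Des* and from 0.49 to 2.09 for *Myh11*. That of *Actg2* ran from -2.11 to -1.38 in LL2 and from -2.2 to -1.05 in Pan02. Leukocyte markers stood apart in EO771 CAFs, where 8 genes summed to 77.7 and 92.6 RPKM against 6.31 to 19.0 RPKM in the other CAFs, and their part was not tested. Medians over the members were 0.88 in EO771, 0.46 in MC38, -0.80 in LL2 and -0.88 in Pan02, with medians over all genes between -0.03 and 0.00.

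**Figure D3:**
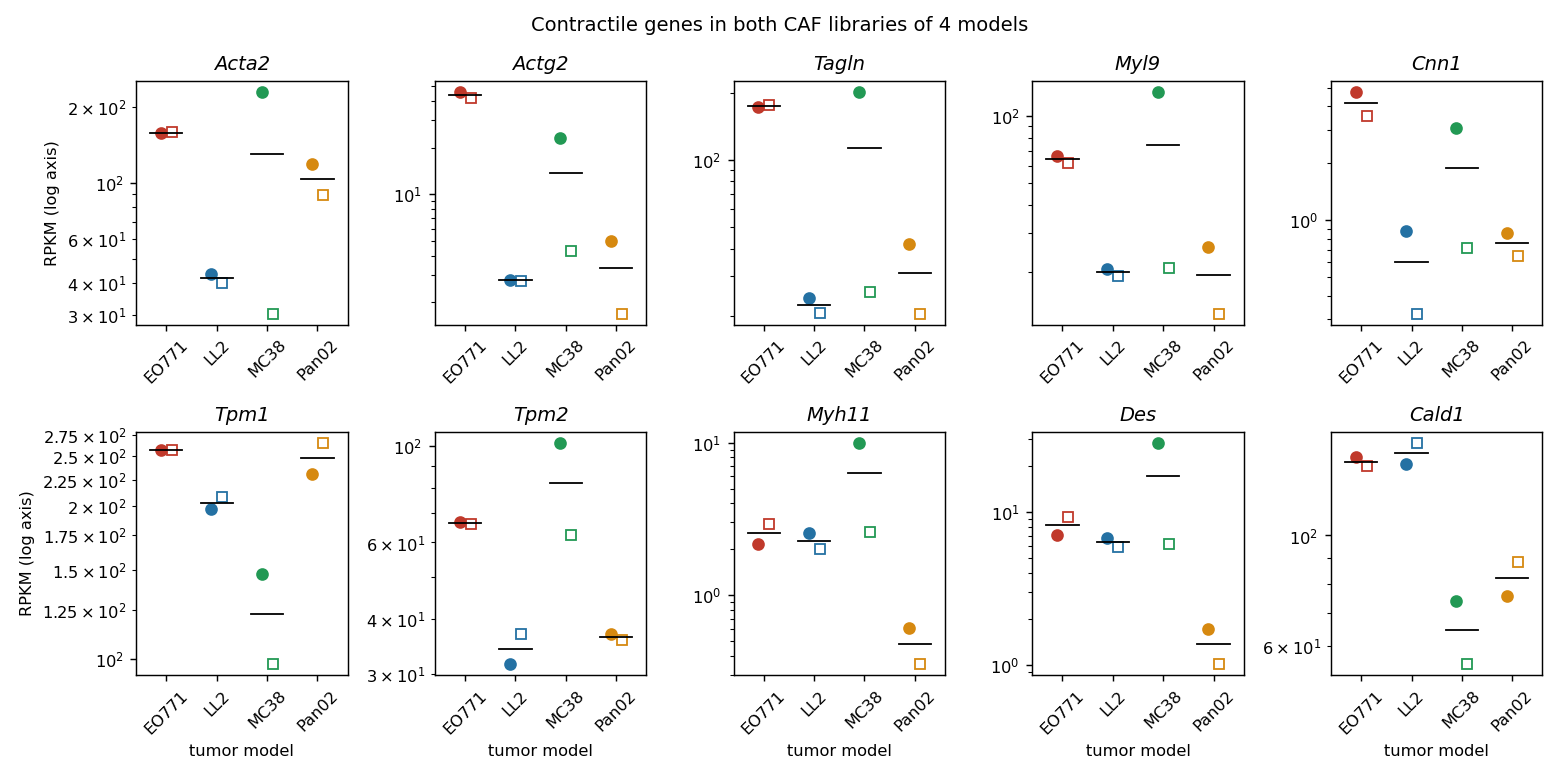
RPKM (log axis) of each contractile gene in both CAF libraries of 4 models; filled circles are library 1, open squares library 2, and lines are means. The EO771 pair nearly coincides for most genes (157 and 160 RPKM for *Acta2*), while the MC38 pair spans 229 and 30.3 RPKM.

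*Acta2* stood at 157 and 160 RPKM in the EO771 libraries, 119 and 89.1 RPKM in Pan02, 229 and 30.3 RPKM in MC38 and 43.6 and 39.98 RPKM in LL2. The MC38 libraries held both the highest and the lowest value of all 8. *Tagln* followed with 172 and 176 RPKM in EO771, 201 and 25.5 RPKM in MC38, 41.9 and 20.5 RPKM in Pan02 and 24.0 and 20.6 RPKM in LL2. EO771 exceeded the other models by 2.23 on the log2(RPKM + 1) scale (SE 0.66, limma adjusted p = 0.025). *Myl9* held 66.5 and 61.5 RPKM in EO771, 128 and 20.8 RPKM in MC38, 26.1 and 13.1 RPKM in Pan02 and 20.7 and 19.3 RPKM in LL2, and no model passed.

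*Actg2* separated EO771 from all other CAFs. It stood at 45.6 and 41.9 RPKM in EO771, 23.1 and 4.30 RPKM in MC38, 5.00 and 1.69 RPKM in Pan02, and 2.81 and 2.75 RPKM in LL2. The difference was 3.01 (SE 0.53, limma adjusted p = 0.003) in EO771, -1.63 (SE 0.53, adjusted p = 0.035) in Pan02 and -1.74 (SE 0.53, adjusted p = 0.041) in LL2. *Cnn1* was near the filter, at 4.75 and 3.57 RPKM in EO771 and 0.321 to 3.08 RPKM in the other libraries, which for 6 libraries was 13 to 80.5 reads. It passed in EO771 with 1.40 (SE 0.31, limma adjusted p = 0.0083). Both EO771 libraries lay above all others for these 2 genes, beside 17.3% of all genes with that order.

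The genes shared with vascular smooth muscle and pericytes, *Des* and *Myh11*, were lowest in Pan02 CAFs. *Des* held 1.72 and 1.01 RPKM there, 7.11 and 9.26 RPKM in EO771, 6.78 and 5.91 RPKM in LL2 and 28.5 and 6.15 RPKM in MC38. The *Myh11* values were 0.608 and 0.354 RPKM in Pan02, 2.17 and 2.93 RPKM in EO771, 2.55 and 2.02 RPKM in LL2 and 9.97 and 2.60 RPKM in MC38. Both Pan02 libraries lay below all others for these 2 genes (15.4% of all genes). The Pan02 differences were -2.08 for *Des* (SE 0.46, limma adjusted p = 0.0072) and -1.50 for *Myh11* (SE 0.37, adjusted p = 0.011). Of 9 pericyte markers, 8 were lower in Pan02 CAFs (8.41% of all genes), and Notch3 was higher (1.51, SE 0.46, limma adjusted p = 0.026). The 9 summed to 56.4 and 39.98 RPKM in Pan02 CAFs against 86.5 to 414 RPKM elsewhere, all above 0 in all libraries. In MC38 CAFs 5 of the 9 were higher (10.9% of all genes), at sums of 414 RPKM in library 1 and 112 RPKM in library 2. The part of the pericyte markers in the result was not tested.

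The broadly expressed actin-binding genes varied less among CAFs. *Tpm1* held 258 and 257 RPKM in EO771, 231 and 266 RPKM in Pan02, 197 and 208 RPKM in LL2, and 147 and 97.8 RPKM in MC38, where it was lower (-0.96, SE 0.17, limma adjusted p = 0.0022). *Cald1* was lower in MC38 too, at 74.0 and 55.3 RPKM (-0.88, SE 0.14, limma adjusted p = 0.0014), against 75.8 to 153 RPKM in the other 6 libraries. Both MC38 libraries lay below all others for these 2 genes, beside 19.8% of all genes. *Tpm2*, by contrast, was higher in MC38, at 102 and 62.5 RPKM (0.86, SE 0.18, limma adjusted p = 0.0045), with 66.7 and 66.1 RPKM in EO771 and 31.5 to 36.9 RPKM in LL2 and Pan02. EO771 against MC38 did not pass for *Tpm2* (-0.26, SE 0.22, limma adjusted p = 0.34), and MC38 library 2 lay below both EO771 libraries. Only against the mean of the other models did *Tpm1* and *Tpm2* thus differ in opposite directions in MC38.

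The 2 MC38 CAF libraries differed in the smooth muscle genes, as they did in the fibroblast and pericyte markers given above. Library 1 exceeded library 2 by at least 1 on the log2(RPKM + 1) scale for 7 of 10 members, beside 5.32% of all genes, and the members' median difference was 1.82 against 0.04 over all genes. The RPKM ratio was 7.57 for *Acta2*, 7.89 for *Tagln*, 6.13 for *Myl9* and 5.37 for *Actg2*, and 1.34 to 1.63 for *Cald1*, *Tpm1* and *Tpm2*. On *Acta2*, library 1 held 7756.5 reads and library 2 held 718.5, and the cause of this gap was not tested. In Pan02, 2 members passed this difference (1.65% of all genes) with *Actg2* the largest at a ratio of 2.95, and in EO771 and LL2 every member differed by at most 0.51. Relative to the mean of the collagen genes Col1a1, Col1a2 and Col3a1, which were also lower in library 2, the MC38 gap in *Acta2* was 0.68 on the log2 scale instead of 2.88, and that of *Tpm1* -1.62.

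**Figure D4:**
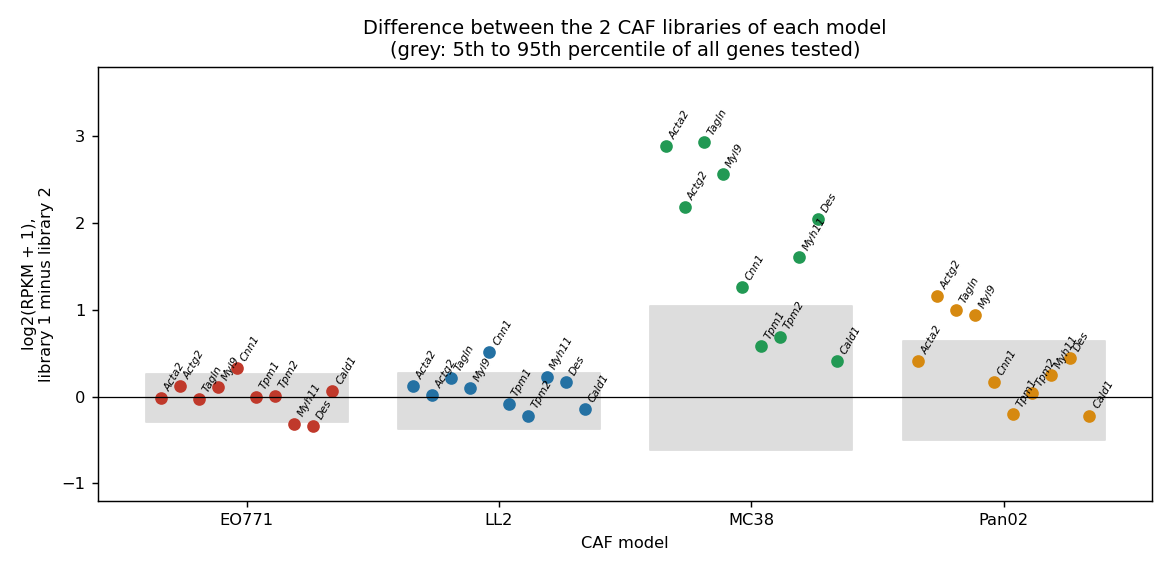
Difference of log2(RPKM + 1) between library 1 and library 2 of each CAF model; points are the 10 genes and grey marks the 5th to 95th percentile of all genes tested. In MC38, 7 of 10 genes lie at 1.26 or more, above a 95th percentile of 1.04.

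Calls in CAFs depended on this pair. With either MC38 library left out, all 10 members differed among models, with a limma adjusted p for *Acta2* of 5.7e-05 without library 1 and 7.5e-05 without library 2. Without library 1, MC38 CAFs were lower than the others in *Acta2* (-1.51, SE 0.16, limma adjusted p = 0.0003), and without library 2 they were higher (1.37, SE 0.16, adjusted p = 0.0005). In EO771 CAFs, *Acta2* stood 1.62 (SE 0.13) above the other models without MC38 library 1. In these fits the lone MC38 library is assumed to vary like the other models. *Actg2*, *Cnn1* and *Tagln* passed in EO771 with either MC38 library left out. Over all 8 single leave-outs, *Actg2* kept this call in 8, *Cnn1* in 7 and *Tagln* in only 3. The EO771 difference of *Tagln* then ran from 1.74 to 2.72.

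Levels in tumors and in CAFs are set side by side per length, with the caution that the tables were normalized separately. Of 40 pairs of a member and a model, 22 had a higher mean RPKM in CAFs than in tumors, 8 of 10 members in EO771, 7 in MC38, 6 in LL2 and 1 in Pan02. By the gene's percentile within its library, the number was 27. In EO771, *Acta2* held a mean of 31.8 RPKM in tumors and 158 RPKM in CAFs, and *Tagln* 35.5 and 174 RPKM. In Pan02 *Tagln* held 263, 97.0 and 99.1 RPKM in the tumors and 41.9 and 20.5 RPKM in CAFs, and *Myl9* 128, 42.2 and 54.2 RPKM against 26.1 and 13.1 RPKM. Every Pan02 tumor lay above both CAF libraries for these 2 genes. *Acta2* had no clear order in Pan02, at 254, 80.9 and 81.1 RPKM in tumors against 119 and 89.1 RPKM in CAFs, and by percentile it was higher in CAFs. *Tpm2* was represented by different transcripts in the 2 tables, and on NM_001277876 in both it was higher in CAFs in EO771 and MC38 as well. The Pan02 CAF libraries carried the epithelial sums given above, whose part in their lower levels was not tested.

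The rise in Pan02 tumors was next set beside the fibrillar collagens, to ask whether the contractile genes kept pace with the amount of matrix-forming stroma. Relative to the mean log2(CPM + 1) of Col1a1, Col1a2 and Col3a1, none of *Acta2*, *Tagln* and *Myl9* was highest in Pan02. Col1a1, Col1a2 and Col3a1 themselves changed by 3.77, 3.70 and 2.59 in Pan02 and by -3.27, -3.36 and -3.81 in B16 (edgeR log2 fold changes). A relative difference thus joins the change of the member and that of the collagens. On CPM alone, as given above, *Cald1* did not pass in Pan02 and *Myl9* did not pass in B16. *Cald1* was lower relative to collagens in Pan02 (-5.28 ± 0.70, SD, n = 3) than in the other tumors (mean -1.68), by -3.60 with an adjusted p of 0.027 in a 2-sided exact permutation test. *Tpm1* (-3.78, exact permutation, adjusted p = 0.027) and *Tpm2* (-2.51, adjusted p = 0.037, exact permutation) were lower as well. B16 was at the other end, higher in *Myh11* (3.97, adjusted p = 0.027, exact permutation) and in *Myl9* (2.86, adjusted p = 0.027, exact permutation), *Actg2* was higher in EO771 (3.55, adjusted p = 0.047, exact permutation), and *Tagln* was lower in LL2 (-1.97, adjusted p = 0.037, exact permutation). These 7 calls were adjusted over 50 tests, with a smallest possible p of 0.0022 for 3 of 15 tumors. With 2 of 14 tumors the smallest exact permutation p is 0.011, so that leaving out a tumor of the tested model says little. Calls were also lost when a tumor of another model was left out. Over the 15 single leave-outs, *Actg2* in EO771 kept its call in 1, *Tagln* in LL2 in 3 and *Tpm2* in Pan02 in 5. *Myl9* and *Myh11* in B16 kept theirs in 9, and *Tpm1* and *Cald1* in Pan02 in 11. *Tpm2* in Pan02 also did not pass with all 10 fibroblast markers as the reference. The differences themselves stayed between -3.27 and -4.18 for *Tpm1* and *Cald1* when 1 Pan02 or B16 tumor was left out.

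**Figure D5:**
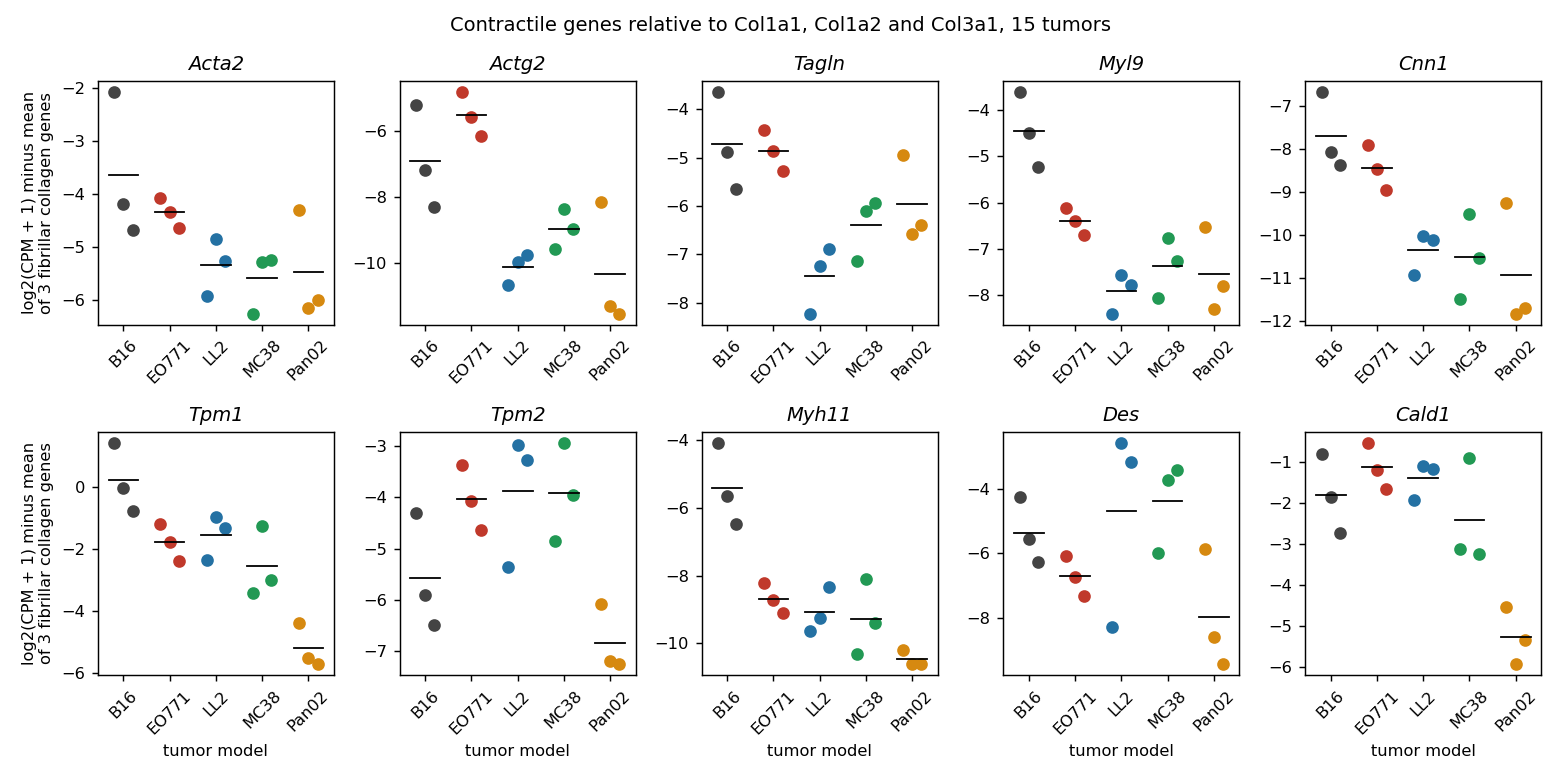
log2(CPM + 1) of each contractile gene minus the mean of Col1a1, Col1a2 and Col3a1 in 15 tumors; points are tumors and lines are means of 3. *Tpm1* and *Cald1* are lowest in Pan02 (means of -5.21 and -5.28) and *Myl9* and *Myh11* highest in B16 (-4.44 and -5.41).

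Among transcripts, *Tpm1* is listed with 10, and reads in shared exons count on each of them. The ratio per length of NM_001164252 to the transcript with the largest mean (NM_024427) was 1.12, 1.08 and 1.09 in the B16 tumors. It was 0.774 to 0.961 in the other 12 tumors and 0.854 to 0.928 in the 8 CAF libraries, so B16 tumors did not overlap the rest. The ratio of NM_001164248 to NM_024427 was largest in MC38 replicate 3, at 1.08, the tumor with the largest skeletal muscle sum. For *Tpm2*, NM_009416 over NM_001277876 ranged from 0.613 to 0.888 in tumors. These ratios carry no test.

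Of 13 other smooth muscle genes, 11 were tested in tumors. In Pan02 5 of them were higher by at least 1 (18.8% of all genes), and in B16 5 were lower and 1 higher (19.6% and 13.1%), with medians of 0.97 and -1.12. Mylk, the kinase that phosphorylates the light chain, was the exception in B16, at 60.1 ± 7.20 CPM (SD, n = 3) there, 53.8 ± 3.38 CPM in Pan02 and 10.8 to 29.1 CPM as means elsewhere (1.37 in B16, SE 0.18, edgeR adjusted p = 1.7e-05). Smtn, coding for smoothelin, held 112 ± 10.7 CPM (SD, n = 3) in B16 against means of 172 to 314 CPM in the other models and was lower in B16 (-1.05, SE 0.20, adjusted p = 0.00049). Myocd, the smooth muscle cofactor of serum response factor, was not tested in either set for its low counts, and stayed at or below 0.491 CPM.

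Among 20 genes of serum response factor and actin signalling, 19 were tested in both sets. B16 tumors had 7 lower and 1 higher (19.6% and 13.1% of all genes), Pan02 tumors 3 higher (18.8%) and EO771 tumors 2 higher and 1 lower (9.71% and 13.7%). The Pan02 share was thus no larger than that of all genes. Srf itself stayed within 107 to 224 CPM in tumors and 17.2 to 39.6 RPKM in CAFs. The clearest group was in MC38 CAFs, with 10 of 19 lower (9.87% of all genes) and 1 higher (10.9%), at a median of -1.0. Vcl, coding for vinculin of focal adhesions, held 16.8 and 8.74 RPKM there against 32.6 to 86.0 RPKM in the other CAFs (-1.93, SE 0.21, limma adjusted p = 0.00022). Actn1, which cross-links actin filaments, was lower as well (-1.86, SE 0.13, limma adjusted p = 4.6e-05). EO771 CAFs had 4 of 19 higher (8.05% of all genes), Actn1 (1.04) and Fhl2 (1.45) among them. Tpm4, a further tropomyosin and the gene of this list with the largest mean in CAFs, held 73.6 to 120.5 RPKM in MC38 against 218 to 297 RPKM in the other CAFs (-1.40, SE 0.19, limma adjusted p = 0.00058). Of 7 genes of non-muscle myosin, 2 were lower in MC38 CAFs (9.87% of all genes), with a median of -0.82. Myh9, the non-muscle heavy chain, was lower there (-1.45, SE 0.14, limma adjusted p = 0.00015) and higher in Pan02 CAFs (1.29, SE 0.14, limma adjusted p = 0.00029). Of 4 other actin genes, Actb, the cytoplasmic β-actin, stayed within 4458 to 7547 CPM in tumors and 1033 to 2383 RPKM in CAFs, and Actg1 was lower in MC38 CAFs (-1.68, SE 0.21, limma adjusted p = 0.00042).

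Of 10 genes of the TGF-β axis, 5 were higher in EO771 CAFs (8.05% of all genes), at a median of 1.06. In MC38 CAFs 5 were lower (9.87% of all genes), at a median of -1.0. In tumors 6 were higher in Pan02 (18.8% of all genes), at a median of 1.35, and 4 in EO771 (9.71%), at a median of 0.39.

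Genes outside the list whose pattern was most like that of *Acta2* were ranked by Pearson correlation on a log scale, as a description. Over the 15 tumors, among 10572 genes with a mean of at least 10 CPM, *Tagln* ranked 4 with r = 0.940, and *Myl9* ranked 50 with 0.888. The non-members at the top were Fbn2 (0.948), Cdh11 (0.947), Cacna1g (0.945), Col12a1 (0.939), Adamts2 (0.937), Myo1d (0.937), Col5a2 (0.930), Sorcs2 (0.930), Srpx2 (0.929) and Cpxm2 (0.926), while the median over all genes was -0.097. Matrix genes such as Fbn2, Col12a1 and Col5a2 are among them, and the tumors of a model share their line. *Tpm1* (0.254), *Des* (0.410) and *Cald1* (0.423) were far less like *Acta2*.

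Over the 8 CAF libraries, among 6402 genes, *Tagln* ranked 50 with r = 0.853 and *Myl9* 130 with 0.784. Igfbp7 (0.971), Mpdu1 (0.960), Col6a1 (0.937), 1500015O10Rik (0.936), Mcrs1 (0.936), Nectin2 (0.929), Gemin7 (0.929), Mgst1 (0.928), Echs1 (0.921) and Plac8 (0.919) led, and the 8 points include the MC38 pair, which set both the highest and the lowest *Acta2* value.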

How the data were processed

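RNA-seq of 15 tumors and 8 CAF libraries was analysed; 5 columns of other samples were not used. Reads had been aligned to mm10 with STAR 2.5.0c and summed over the exons of RefSeq transcripts, on both strands, with HOMER. The tumor values the authors deposited were expected counts, in steps of 0.5. For CAFs, the authors deposited RPKM from the same steps. Where a symbol had several transcripts, that of largest mean was kept. Pan02 tumors were grouped by the cell line in the labels, since their titles spell the line otherwise.

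Tumor counts were rounded and passed through filterByExpr. The 15722 genes left, on TMM scaling, entered edgeR 4.0.16, with each model against the mean of the others and all pairs. CAFs were fitted with limma 3.58.1 (variance trend) on log2(RPKM + 1) for the genes that reached 1 RPKM in 2 or more libraries. p-values were adjusted by Benjamini-Hochberg over all genes tested. In counts of genes, higher or lower means a log2 difference of 1 or more with adjusted p below 0.05. Single genes called higher or lower can differ by less than 1, with the value given. CPM are on the TMM scale; total-count scaling shifted all log2 values by 0.14 in MC38 and -0.11 in Pan02 against the other models. Collagen-relative levels were tested by exact permutation. Reads behind RPKM were recovered from the steps of low values, whole in 99.9 to 100.0% of values within 0.2 half-reads. The members and lists were chosen with earlier results of these data known. Named genes are the 10 members, abundant genes of the lists (1 is not reported here), and the 10 non-members most like *Acta2* in each set; Acta1, Actg1, Actn1, Fhl2, Mylk, Notch3, Vcl, Myocd and Srf were chosen after their values had been seen.  Fits were tested on simulated data. Promoters are RefSeq windows of GRCm38.p6, and transcripts and exons for shared runs are GENCODE. Other tools were R 4.3.3, DESeq2 1.42.0, Python 3.11.15, numpy 2.4.6, pandas 2.3.3 and matplotlib 3.10.9.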

Additional observations from a re-analysis of the deposited data

How the results depend on the processing

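In tumors, DESeq2 in place of edgeR gave 1 member lower in EO771. In the 8 tumors with little skeletal muscle RNA, a choice made after seeing the data, *Des* in LL2 reversed to -0.36. The EO771 differences of *Tagln* (1.23) and *Tpm2* (1.72) there exceeded 1 on the log2 scale, with no MC38 tumor in the fit. In CAFs, a pseudocount of 0.1, and likewise no filter on low values, left 0 members lower in LL2 (1 by limma otherwise), and no filter left 1 higher in MC38. The cause was not tested. Leaving out 1 tumor at a time gave 5 to 7 members lower in B16 (5 without B16 replicate 2) and 5 to 8 higher in Pan02 (5 without Pan02 replicate 1). It gave 3 to 4 higher and 0 to 1 lower in EO771 (1 lower without LL2 replicate 1), 2 to 3 higher and 3 to 4 lower in LL2, and 1 to 2 higher and 0 to 2 lower in MC38. The collagen-relative calls ranged from 0 to 6. The lower number of splits limits the smallest p when a tumor of the tested model is left out, and calls were also lost without tumors of other models. Leaving out 1 CAF library at a time gave 5 to 10 members that differed among models (5 without either Pan02 library), 1 to 5 higher in EO771, 0 to 5 lower in LL2, 0 to 7 higher and 0 to 3 lower in MC38, and 0 to 5 lower in Pan02.

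The tumor numbers did not pair the samples: over 30 pairs the correlation of deviations ran from -0.17 to 0.26, with 8 over 0.1. With the replicate number as a block, 10 members differed among models, 7 were lower in B16, 7 higher in Pan02, 4 higher in EO771, 2 higher and 3 lower in LL2, and 2 higher in MC38. No paired analysis was possible because CAF columns carry no replicate number, and the permutation tests use none. Over the alternatives, for members that passed with all samples, of 987 values 826 kept their direction and side of the threshold, 160 kept only their direction and 1 reversed. With 2 libraries per CAF model, 1 library can decide a call, and *Acta2* in MC38 CAFs, not called and so not counted here, took either sign. No share of all genes called is given for the fits with a sample left out. Their counts therefore do not tell whether the members moved more than other genes.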
